A study of Homo sapiens with 4 samples.

Results

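The genes for mitochondrial ribosomal proteins were examined in MYCN-amplified neuroblastoma cells with and without knockdown of MYCN. They were taken by symbol, as the genes named MRPL or MRPS with a number and at most a letter A to C after it, and 77 of the 26364 listed genes met this rule. Of these, 48 carry the symbol of a large subunit protein (MRPL) and 29 that of a small subunit protein (MRPS). Control cells (Ctrl) and MYCN knockdown cells (MYCN KD) were measured in 2 RNA-seq samples each. All 4 samples came from BE(2)C, a single human neuroblastoma cell line with amplified MYCN, and all received an siRNA with a lipid transfection reagent. The Ctrl samples, labelled wild type, received a non-targeting siRNA, and the MYCN KD samples received a single siRNA product against MYCN, so that effects of that siRNA on other transcripts cannot be told apart from those of MYCN. The labels give 80 nM siRNA for 6 h, with RNA taken on the next day.

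The mitochondrial ribosome translates the few proteins that the mitochondrial genome still encodes, all of them core subunits of the respiratory chain and the ATP synthase. Its RNA comes from the mitochondrial genome, whereas its proteins are encoded in the nucleus, made on cytosolic ribosomes and imported. Some of these proteins descend from bacterial ribosomal proteins and others were added in mitochondria. MYC proteins are known as activators of ribosome production and of mitochondrial biogenesis.

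The values were RPKM (read counts scaled by transcript length and by sequencing depth), which the authors computed from counts after removal of unwanted variation. Whole reads could be recovered from the RPKM steps, and the totals were 34142988 and 31976939 reads in Ctrl and 29055819 and 30941778 reads in MYCN KD. MYCN was at 1068 and 1073 RPKM in Ctrl and at 720.2 and 718.0 RPKM in MYCN KD, a level 32.8% lower (log2 fold change -0.57, SE 0.0286, limma adjusted p = 0.00361). All 8 markers of adrenergic neuroblastoma cells were at 1 RPKM or more in every sample, with a summed level of 1251 to 1353 RPKM in Ctrl against 1988 to 2163 RPKM in MYCN KD. Markers of other cell types were low. The summed level of 4 fibroblast markers was 5.32 to 6.28 RPKM in Ctrl against 9.54 to 11.1 RPKM in MYCN KD, with PRRX1 at 0, and that of 4 Schwann cell markers was 4.86 to 5.30 and 8.91 to 9.69 RPKM. The 4 epithelial markers summed to 1.02 to 1.07 RPKM in Ctrl against 1.97 to 2.04 RPKM in MYCN KD, the 3 endothelial markers to 0.286 to 0.367 and 0.504 to 0.638 RPKM, and the 4 leukocyte markers to 1.54 to 1.77 and 1.57 to 1.77 RPKM. The part of these markers in the results below was not tested. In such bulk samples, fewer cells of a type and less RNA per cell cannot be told apart.

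Most mitochondrial ribosomal protein genes were lower after MYCN knockdown. Of the 76 genes with a mean of at least 1 RPKM, 51 fell past an adjusted p of 0.05 in limma on log2(RPKM + 1), which is 67.1%, against 22.8% of all 11411 genes tested in this way. No member rose past the threshold in limma or in limma voom on the recovered reads, against 25.3% of all tested genes in limma, although 2 did when the samples were rescaled to an equal total and 1 did after quantile normalization. At an unadjusted p under 0.05, 1 member was higher in limma. The remaining 25 members did not pass the test. The median log2 fold change of the 76 genes was -0.32, with quartiles of -0.51 and -0.12 and a range from -1.03 to 0.20, and the median of all tested genes was 0.03. Both MYCN KD samples lay below both Ctrl samples for 64 of the 76 genes, against 35.8% of all tested genes, above both for 4, and the groups overlapped for 8. The 51 genes that fell were lower by 9.49% to 51.4%, with a median of 25.5%.

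**Figure D1:**
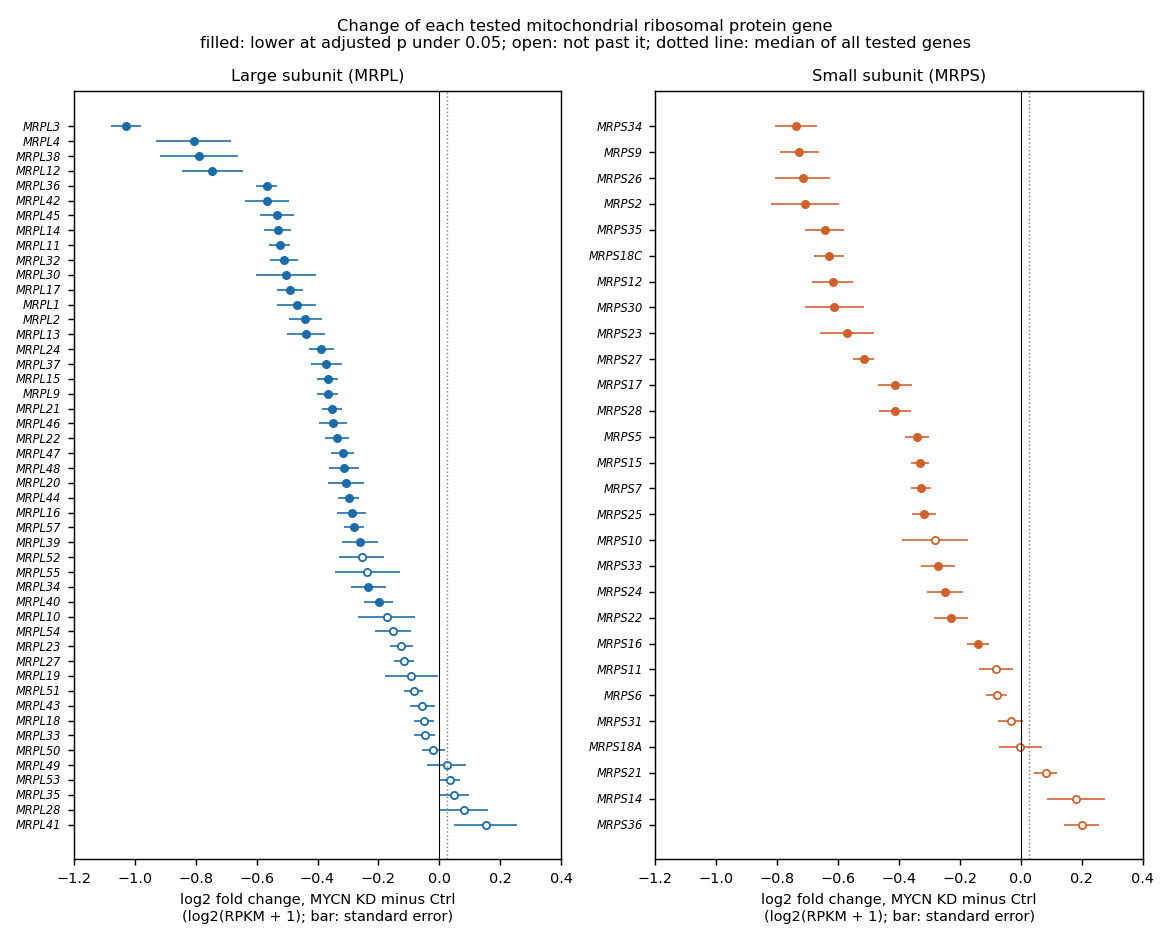
Log2 fold change of MYCN KD against Ctrl on the log2(RPKM + 1) scale (x axis) for each of the 76 tested mitochondrial ribosomal protein genes (y axis), with large subunit genes on the left and small subunit genes on the right. Points show the limma estimate and bars its standard error (2 samples per group), filled points are the 51 genes lower past the threshold, and the dotted line is the median of all tested genes at 0.03. MRPL3 lies farthest to the left at -1.03 and MRPS36 farthest to the right at 0.20.

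These p-values measure only the spread between the samples, since the labels do not say whether the replicates were separate cultures. The removal of unwanted variation before deposit can narrow that spread, and limma takes no account of it. The log2(RPKM + 1) scale understates the change of genes with low RPKM.

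The gene that fell most was MRPL3, which encodes a large subunit protein with a bacterial counterpart that reaches towards the peptidyl transferase centre. It lies on chromosome 3 of GRCh37 (chr3:131181056-131221827, minus strand), where its canonical transcript has 10 exons. Its level was 107.9 and 113.8 RPKM in Ctrl against 55.2 and 52.6 RPKM in MYCN KD. Both knockdown samples were thus below both controls, by far more than the gap between replicates. The mean went from 110.8 ± 4.15 to 53.9 ± 1.86 RPKM (SD, n = 2), which is 51.4% lower (log2 fold change -1.03, SE 0.0493, limma adjusted p = 0.00359).

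MRPL4 and MRPL38 came next on the log2(RPKM + 1) scale, although by percent MRPS9 (44.4% lower) came before MRPL4 (43.2%) and MRPL38 (42.6%). MRPL4, whose protein lines the wall of the exit tunnel, was at 108.9 and 93.0 RPKM in Ctrl and at 52.8 and 61.7 RPKM in MYCN KD. MRPL38, a protein of the central protuberance without a bacterial counterpart, was at 100.1 and 84.8 RPKM in Ctrl and at 48.8 and 57.4 RPKM in MYCN KD. For both genes the replicates of a group differed more than for MRPL3, and the groups did not overlap. Their log2 fold changes were -0.81 (SE 0.123, limma adjusted p = 0.0163) and -0.79 (SE 0.129, limma adjusted p = 0.0184).

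MRPS34 had the lowest log2 fold change of the small subunit genes on the log2(RPKM + 1) scale, whereas MRPS9 had the larger fall in percent, and the lower log2 fold change with a pseudocount of 0.1 (-0.83 for MRPS9 and -0.74 for MRPS34) and after quantile normalization (-0.78 and -0.65). MRPS34 encodes a protein added in mitochondria, in which inherited mutations cause a disorder of mitochondrial translation. Its level was 322.2 and 296.4 RPKM in Ctrl against 177.3 and 192.6 RPKM in MYCN KD, a mean 40.2% lower (log2 fold change -0.74, SE 0.0700, limma adjusted p = 0.00690). An exon of MRPS34 overlaps the gene EME2 on the opposite strand, and the sources used here do not say whether reads were counted by strand, but EME2 was at 1.11 to 1.43 RPKM.

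Among the small subunit genes with bacterial counterparts, MRPS9 was at 8.58 and 7.94 RPKM in Ctrl and at 4.41 and 4.77 RPKM in MYCN KD (log2 fold change -0.73, SE 0.0638, limma adjusted p = 0.00626). MRPS2 was at 78.1 and 67.7 RPKM in Ctrl and at 41.1 and 47.3 RPKM in MYCN KD (log2 fold change -0.71, SE 0.112, limma adjusted p = 0.0172). MRPS26, added in mitochondria, was at 45.7 and 40.8 RPKM in Ctrl and at 24.5 and 27.4 RPKM in MYCN KD (log2 fold change -0.72, SE 0.0902, limma adjusted p = 0.0112). The knockdown samples of all 3 genes were below the controls, although their levels differed widely.

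**Figure D2:**
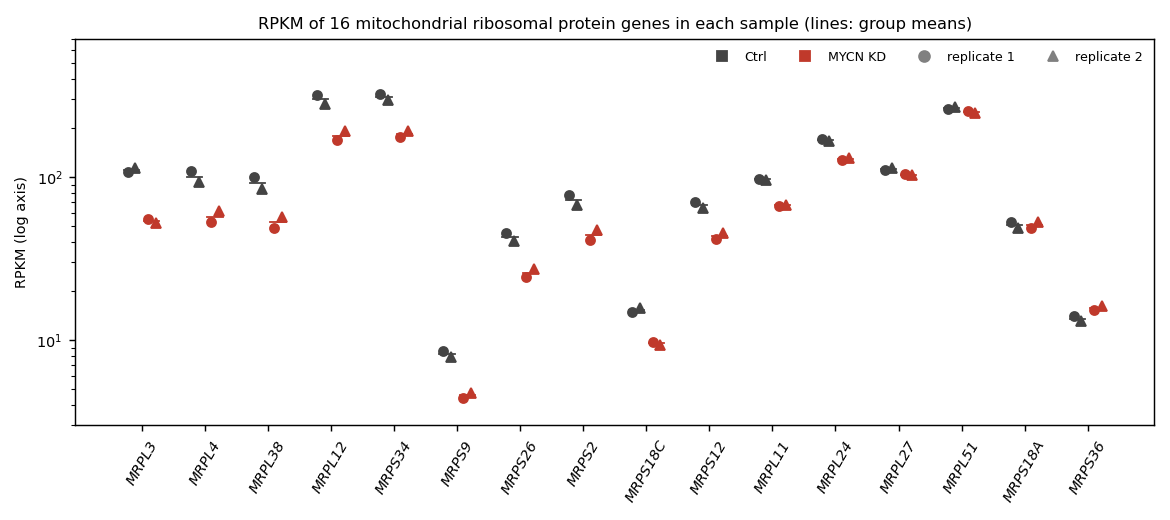
RPKM on a log axis (y axis) of 16 mitochondrial ribosomal protein genes (x axis) in each sample, with Ctrl in grey, MYCN KD in red, circles for replicate 1, triangles for replicate 2 and lines for the group means. The groups are well apart for MRPL3 at the left, close together for MRPL51, and overlap for MRPS18A, while both knockdown points of MRPS36 lie above its controls.

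The bases before the transcript start are shown for 4 of the genes that fell, because MYC proteins bind as dimers with MAX to the E-box CACGTG. They are the 3 genes with the lowest log2 fold change among those with this motif in the promoter table (MRPS2, MRPS18C and MRPL36), and the gene with the lowest of all, MRPL3, which has none there. Each sequence gives the 250 bases upstream of the start from RefSeq on GRCh38.p14, 5′ to 3′ on the strand of the gene, whereas the expression values rest on hg19. The windows are chr9:135499715-135499964 (plus) for MRPS2, chr4:83455808-83456057 (plus) for MRPS18C, chr5:1799838-1800087 (minus) for MRPL36 and chr3:131502972-131503221 (minus) for MRPL3. Capitals mark matches to any of 4 motifs searched on both strands: the E-box CACGTG, CCGGAAGT (bound by ETS factors), AAGATGGC (bound by YY1) and GCGCATGC (bound by NRF1).
MRPS2: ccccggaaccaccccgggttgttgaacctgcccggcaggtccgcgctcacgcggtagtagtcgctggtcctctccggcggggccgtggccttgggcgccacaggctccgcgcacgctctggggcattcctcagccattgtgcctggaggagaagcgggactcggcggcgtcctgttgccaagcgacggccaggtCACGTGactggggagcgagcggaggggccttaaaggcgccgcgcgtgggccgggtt
MRPS18C: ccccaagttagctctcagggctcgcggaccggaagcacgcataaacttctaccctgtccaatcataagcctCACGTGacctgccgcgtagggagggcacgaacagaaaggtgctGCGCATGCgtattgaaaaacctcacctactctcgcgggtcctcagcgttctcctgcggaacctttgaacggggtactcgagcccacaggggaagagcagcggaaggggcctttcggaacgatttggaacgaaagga
MRPL36: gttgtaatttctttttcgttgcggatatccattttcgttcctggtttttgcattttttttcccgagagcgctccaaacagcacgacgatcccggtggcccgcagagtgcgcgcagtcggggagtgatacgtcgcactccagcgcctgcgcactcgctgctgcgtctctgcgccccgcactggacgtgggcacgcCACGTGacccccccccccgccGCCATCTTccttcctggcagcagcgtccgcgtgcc
MRPL3: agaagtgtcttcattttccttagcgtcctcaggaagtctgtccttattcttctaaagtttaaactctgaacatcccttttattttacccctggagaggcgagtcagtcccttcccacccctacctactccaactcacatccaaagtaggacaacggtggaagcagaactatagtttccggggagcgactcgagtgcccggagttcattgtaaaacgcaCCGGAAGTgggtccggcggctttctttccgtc
The E-box starts 56 bases upstream of the start in MRPS2, 179 in MRPS18C and 56 in MRPL36. MRPS18C also holds GCGCATGC 136 bases upstream, MRPL36 holds the reverse complement of AAGATGGC 35 bases upstream, and MRPL3 holds CCGGAAGT 32 bases upstream. MRPS2 has another window in the table, which holds none of the 4 motifs in the bases before its start.

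Promoter windows of 300 bases, from 250 before to 50 after the start, were found for 69 of the 77 genes, in 85 windows. CACGTG was in 11.8% of these windows, 9.83% of the windows of all tested genes and 7.26% of all 35116 windows. CCGGAAGT was in 16.5% of the members' windows, against 8.07% and 4.14%. AAGATGGC was in 27.1%, against 5.23% and 2.89%, and GCGCATGC in 7.06%, against 5.20% and 3.05%. Thus AAGATGGC was the motif most often found in these promoters, in 21 genes, and 16 of its 24 matches began at or after the start. For 34 of the 69 genes, none of the 4 motifs was in the window.

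Of the 10 members with CACGTG, 8 fell, with a median log2 fold change of -0.49, and of the 58 tested members without it 39 fell, with a median of -0.31. Among all tested genes with a window, 32.4% of 1194 with CACGTG and 21.2% of 7832 without it fell. For AAGATGGC, 14 of 20 members with it fell (median -0.33) and 33 of 48 without it (median -0.30), against 25.2% and 22.5% of all tested genes with and without it. For CCGGAAGT, 7 of 12 members with it fell (median -0.27) and 40 of 56 without it (median -0.33), against 24.5% and 22.5%. For GCGCATGC, 4 of 5 members with it fell (median -0.49) and 43 of 63 without it (median -0.31), against 23.9% and 22.6%. A match is a description of these letters and not a binding site. Most members had no CACGTG in the window, both among those that fell and among those that did not. The part of the E-box in the fall was not tested.

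The genes for proteins of the stalk, which recruits the translation factors, were not all called lower. MRPL12, the stalk protein itself and also a partner of the mitochondrial RNA polymerase, was at 320.7 and 282.7 RPKM in Ctrl and at 168.4 and 190.7 RPKM in MYCN KD. MRPL11, at the base of the stalk, was at 98.2 and 96.1 RPKM in Ctrl and at 66.5 and 68.0 RPKM in MYCN KD. Both fell, by 40.5% (limma adjusted p = 0.0127) and by 30.8% (limma adjusted p = 0.00440), and MRPL11 shares exon bases with PELI3 on the opposite strand. MRPL10, which anchors MRPL12, was at 49.98 and 44.4 RPKM in Ctrl and at 39.4 and 44.2 RPKM in MYCN KD. Its samples were not far from touching, and the difference was not past the threshold (log2 fold change -0.17, SE 0.0931, limma adjusted p = 0.208). No test of the difference between these changes was run.

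Around the exit of the tunnel, through which new proteins leave towards the inner membrane, MRPL45 and MRPL24 fell, and so did MRPL44. MRPL45, which holds the ribosome at the membrane, was at 39.9 and 42.5 RPKM in Ctrl and at 29.01 and 27.3 RPKM in MYCN KD (log2 fold change -0.53, SE 0.0563, limma adjusted p = 0.00819). MRPL24 was at 172.7 and 166.0 RPKM in Ctrl and at 126.8 and 131.8 RPKM in MYCN KD (log2 fold change -0.39, SE 0.0420, limma adjusted p = 0.00852). MRPL44, an RNase III-like protein of the large subunit, was at 39.5 and 40.2 RPKM in Ctrl and at 32.5 and 31.97 RPKM in MYCN KD (log2 fold change -0.30, SE 0.0348, limma adjusted p = 0.00971). In contrast, MRPL23 at the rim of the exit was at 95.2 and 92.4 RPKM in Ctrl and at 84.6 and 87.2 RPKM in MYCN KD, just outside the threshold (log2 fold change -0.13, limma adjusted p = 0.0679).

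In the small subunit, MRPS12 of the decoding centre was at 70.0 and 64.6 RPKM in Ctrl and at 41.8 and 45.2 RPKM in MYCN KD (log2 fold change -0.62, SE 0.0674, limma adjusted p = 0.00861). MRPS5, at the entrance of the mRNA channel, was at 40.7 and 41.9 RPKM in Ctrl and at 32.8 and 31.97 RPKM in MYCN KD (log2 fold change -0.34, limma adjusted p = 0.00907). MRPS7, a protein of the head, was at 110.4 and 112.4 RPKM in Ctrl and at 89.3 and 87.9 RPKM in MYCN KD (log2 fold change -0.33, limma adjusted p = 0.00745). All 3 were lower in both knockdown samples, with the change of MRPS12 the largest of them. MRPS22 and MRPS16, in both of which inherited mutations cause mitochondrial disease, changed less. MRPS22 was at 33.0 and 35.1 RPKM in Ctrl and at 29.8 and 28.1 RPKM in MYCN KD (limma adjusted p = 0.0417), and MRPS16 was at 59.2 and 60.6 RPKM in Ctrl and at 54.8 and 53.6 RPKM in MYCN KD (limma adjusted p = 0.0464).

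MRPS30 carries a small subunit symbol although its protein sits in the large subunit of the mammalian ribosome. It was at 23.9 and 27.1 RPKM in Ctrl and at 17.3 and 15.3 RPKM in MYCN KD, and it fell by 35.9% (log2 fold change -0.61, SE 0.0969, limma adjusted p = 0.0174).

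The 3 MRPS18 paralogs, which descend from 1 bacterial protein, each gave another picture. MRPS18C was at 14.98 and 15.8 RPKM in Ctrl and at 9.78 and 9.36 RPKM in MYCN KD, and fell by 37.7% (log2 fold change -0.63, SE 0.0498, limma adjusted p = 0.00546). MRPS18A, whose protein is found in the large subunit, was at 53.4 and 49.0 RPKM in Ctrl and at 49.0 and 53.2 RPKM in MYCN KD. These groups overlapped, with a fold change near 0 (SE 0.0708 on the log2 scale, limma adjusted p = 0.979). MRPS18B was the single member that was not tested, with 3 and 4 reads in Ctrl and 3 reads in each MYCN KD sample. It lies at chr6:30585617-30594172 on GRCh37, where 54 of the 61 protein-coding genes listed within 1000000 bases were below 0.1 RPKM in every sample, and so this value is not read as a lack of expression.

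The members nearest the threshold changed little, and several calls were lost with fewer samples. Fewer samples also give a weaker test, so such a loss does not show that a call rested on 1 sample. Just inside it were MRPS16 (log2 fold change -0.14), MRPL34 (-0.23), MRPS22 (-0.23) and MRPL40 (-0.20). Among the named members, the calls of MRPS16, MRPS22, MRPL40, MRPS24 and MRPL57 were lost when any 1 sample was left out. The call of MRPL34 was lost without replicate 1 of either group, and that of MRPL44 without replicate 2 of either group (limma adjusted p = 0.0513 without that of Ctrl and 0.0616 without that of MYCN KD). Just outside the threshold were MRPL27 (-0.12, limma adjusted p = 0.0598), MRPS36 (0.20, limma adjusted p = 0.0624), MRPL52 (-0.26, limma adjusted p = 0.0634) and MRPL23. MRPL27, which lies near the bound tRNAs, was at 111.1 and 113.4 RPKM in Ctrl and at 104.4 and 102.5 RPKM in MYCN KD. MRPS36 was at 13.99 and 13.1 RPKM in Ctrl and at 15.2 and 16.2 RPKM in MYCN KD, and thus was the member with the largest value above 0. Its protein is known today as a part of the alpha-ketoglutarate dehydrogenase complex and not of the ribosome.

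MRPS24 fell past the threshold at the lowest level of any tested member, 2.44 and 2.20 RPKM in Ctrl against 1.73 and 1.86 RPKM in MYCN KD, with 58, 49, 35 and 40 reads (log2 fold change -0.25, limma adjusted p = 0.0402). It shares exons on the same strand with the readthrough gene URGCP-MRPS24, which was listed at 0, so its level is uncertain. Overlaps of this kind were common. Exons of 23 of the 77 members overlap another listed gene, 3 of them on the same strand and 20 on the opposite strand. Of the 53 tested members without such overlap, 37 fell and none rose, with a median log2 fold change of -0.34.

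MRPL57 and ICT1 encode proteins that came to be counted among the large subunit proteins, and ICT1, now also named MRPL58, is a release factor-like hydrolase built into the ribosome. MRPL57 was at 26.4 and 26.6 RPKM in Ctrl and at 21.7 and 21.6 RPKM in MYCN KD (log2 fold change -0.28, SE 0.0338, limma adjusted p = 0.0103), with an adjusted p of 0.0648 to 0.0865 when 1 sample was left out. ICT1, no member by its symbol, was at 56.1 and 54.1 RPKM in Ctrl and at 43.4 and 45.1 RPKM in MYCN KD (log2 fold change -0.31, limma adjusted p = 0.0127). Together with ICT1, 6 mitoribosomal proteins under other symbols were tested, and 4 of them fell, with a median log2 fold change of -0.26.

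Split by symbol, a fall was called for 31 of 48 large subunit genes (median log2 fold change -0.31) and for 20 of 28 tested small subunit genes (median -0.33). MRPS30, MRPS18A and MRPS36 were thus kept with the small subunit here, in the sums and in the figures. By origin, as classed for this count, 32 of 45 genes with a bacterial counterpart fell (median -0.34), and 19 of 30 tested genes without one (median -0.28). MRPS18A, MRPS18B and MRPL55 were counted as without one, and MRPS36 was put in neither class. MRPS18A and MRPS18B were so counted although they descend from the same bacterial protein as MRPS18C, which was counted as with one. The difference between the classes was not tested. When the 76 genes were divided into 3 classes by mean RPKM, 18 of 26 of low level, 18 of 25 of middle level and 15 of 25 of high level fell, with medians of -0.30, -0.35 and -0.31. The 3 members of highest mean level were MRPL51, MRPS34 and MRPL12. MRPL51, added in mitochondria, was at 263.8 and 268.6 RPKM in Ctrl and at 253.1 and 248.9 RPKM in MYCN KD (log2 fold change -0.08, limma adjusted p = 0.107).

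The summed RPKM of the 77 genes was 5406 and 5211 in Ctrl, against 4153 and 4302 in MYCN KD. The mean of 5309 ± 138 RPKM in Ctrl against 4228 ± 106 RPKM in MYCN KD (SD, n = 2) gave a sum 20.4% lower, while the sum over all listed genes was 4.14% lower. Split by symbol, the large subunit sum was 19.0% lower and the small subunit sum 23.9% lower. As a share of all RPKM, the members made up 1.24% and 1.22% in Ctrl, but only 1.02% and 1.03% in the MYCN KD samples. The ratio of the large to the small subunit sum was 2.58 and 2.54 in Ctrl, against 2.70 and 2.75 in MYCN KD. The difference between the subunits was not tested. The groups did not overlap in any of these sums, and with 2 samples per group no permutation test was run on them.

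**Figure D3:**
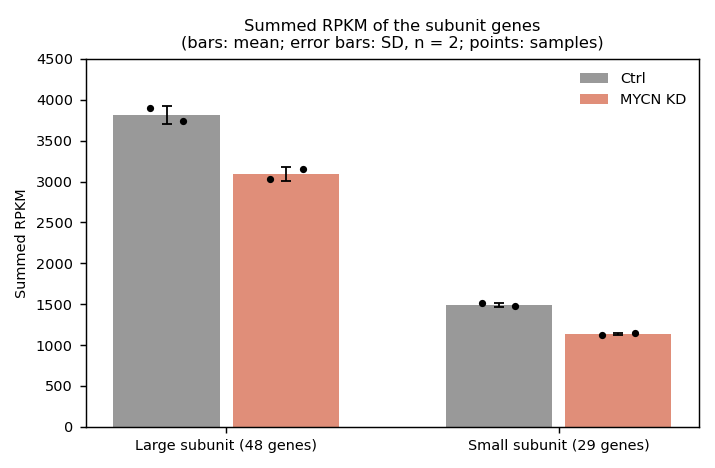
Summed RPKM (y axis) of the 48 large and the 29 small subunit genes (x axis) in Ctrl and MYCN KD, with bars for the mean, error bars for the SD (n = 2) and points for the samples. Both points of MYCN KD are below both points of Ctrl for each subunit.

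Other genes that serve mitochondrial translation were counted in the same way, against 22.8% of all tested genes lower. Of 27 assembly and modification factors, 14 fell (51.9%) and none rose (median log2 fold change -0.21). The largest falls were those of C1QBP, a chaperone-like matrix protein that takes part in mitoribosome assembly, at -1.03 (limma adjusted p = 0.00359), of the rRNA methyltransferase MRM1 at -0.85 (limma adjusted p = 0.0118) and of the pseudouridine synthase RPUSD4 at -0.67 (limma adjusted p = 0.00361). Of 16 translation factors, 5 fell (31.2%) and none rose (median -0.14), a share near that of all tested genes. They were led by the recycling factor MRRF at -0.60 (limma adjusted p = 0.00832), the RNA-binding protein SLIRP at -0.53 (limma adjusted p = 0.00440) and the elongation factor TUFM at -0.45 (limma adjusted p = 0.0120).

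Of 81 tested cytosolic ribosomal protein genes, 84.0% fell and none rose, with a median log2 fold change of -0.42. The leading ones were RPL22L1 at -1.10, RPS10 at -0.68 and RPL13A at -0.68, and ribosomal protein genes of this kind have many processed pseudogenes that can take reads. Respiratory chain and ATP synthase genes, which include the nuclear partners of the proteins made by the mitochondrial ribosome, were taken by symbol. The symbol does not show that each of them encodes a subunit. Of the 79 tested, 18 fell and 4 rose, with a median of -0.04, and the 22.8% that fell is the same share as of all tested genes. COX5B, a subunit of cytochrome c oxidase, had the largest fall at -0.91 (limma adjusted p = 0.00568), before ATP5G1 of the ATP synthase (-0.45) and UQCRC2 of complex III (-0.43). No test between these lists and the mitochondrial ribosomal protein genes was run.

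**Figure D4:**
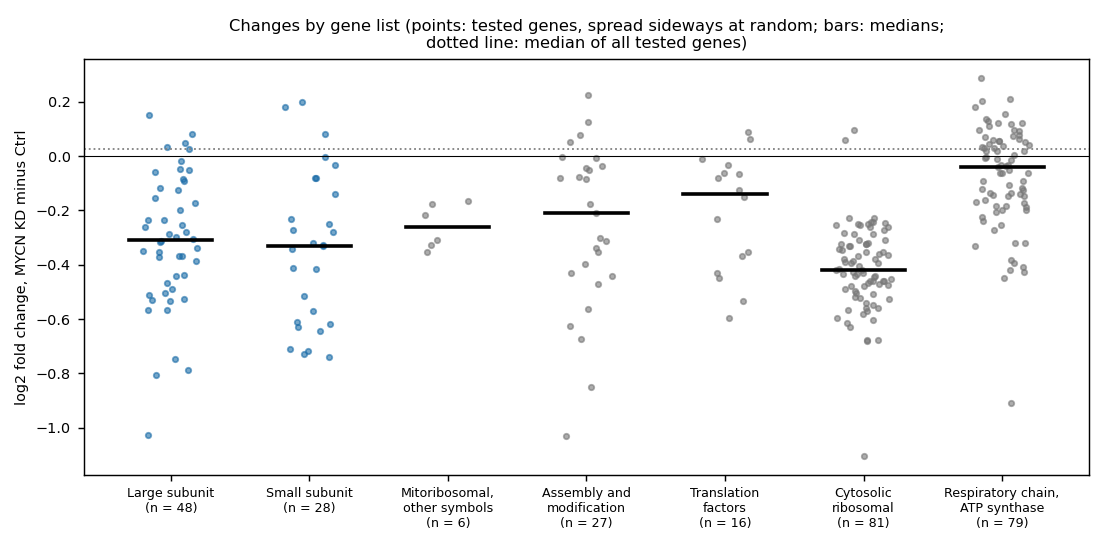
Log2 fold change of MYCN KD against Ctrl on the log2(RPKM + 1) scale (y axis) for the tested genes of 7 lists (x axis), with a point per gene spread sideways at random, a bar at each median and a dotted line at the median of all tested genes (0.03). The bars of the large and small subunit genes lie at -0.31 and -0.33, below that of the respiratory chain and ATP synthase genes at -0.04 and above that of the cytosolic ribosomal genes at -0.42.

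The genes next to the members were also examined. Starts within 1000 bases on the opposite strand were found for 26 members, and 20 of the neighbours that are not members were tested. Of these neighbours, 5 fell (25%) and 4 rose (20%), with a median log2 fold change of -0.10, and both shares are near those of all tested genes (22.8% and 25.3%). For the 14 pairs in which the member fell, the neighbour fell in 3, rose in 4 and did not pass the test in 7. The start of TMEM63B, for example, is 538 bases from that of MRPL14, and TMEM63B rose (log2 fold change 0.88, limma adjusted p = 0.00722) while MRPL14 fell (log2 fold change -0.53, limma adjusted p = 0.00577). MRPS12 and SARS2, the mitochondrial seryl-tRNA synthetase, have starts 181 bases apart. SARS2 was at 17.98 and 15.8 RPKM in Ctrl and at 15.1 and 17.1 RPKM in MYCN KD, and these groups overlapped (limma adjusted p = 0.588). In 1 pair both genes are members, MRPL46 and MRPS11, with starts 63 bases apart. MRPL46 fell (log2 fold change -0.35, limma adjusted p = 0.0116), and MRPS11 did not pass the test (log2 fold change -0.08, limma adjusted p = 0.295).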

How the data were processed

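RNA-seq of 4 BE(2)C samples was used, and groups and replicate numbers came from the sample titles. The RPKM values deposited by the authors came from alignment to hg19 by HISAT2 2.1.0 (version per the submitters' processing notes), featureCounts on RefSeq genes, DESeq2, and RUVSeq to take out unwanted variation, whose normalized counts were then scaled. The RUVSeq variant and its number of factors are not given in the sources used here. The methods give another siRNA concentration than the labels.

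log2(RPKM + 1) was fitted with limma 3.58.1 (R 4.3.3, eBayes with a trend, 2 residual degrees of freedom, no block) for the 11411 genes whose mean RPKM reached 1, and p-values were adjusted over all of them (Benjamini-Hochberg). The fit was also run on simulated counts drawn independently for each sample. These lack the mirror-image replicates described below, so that run cannot show whether the p-values are too small. All 19908 genes above 0 gave whole reads, within 0.004 reads. Gene positions came from GENCODE release 44 on GRCh37.

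Members, lists and alternatives were chosen with earlier results of these data known. Named genes were the 8 lowest and 5 highest log2 fold changes among called members, the 3 highest levels, untested members, the 4 nearest the threshold on each side, members with fixed roles, and the leading 3 of each other list. MRPL36, EME2 and the neighbour pairs named (TMEM63B, MRPL14, SARS2, MRPL46, MRPS11) are outside that rule, and the pairs were chosen after their values were seen.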

Additional observations from a re-analysis of the deposited data

How the results depend on the processing

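The count of mitochondrial ribosomal protein genes that fell, 51 in limma without a block, depended on the setting. It was 51 with a pseudocount of 0.1 (22.8% of all tested genes lower), 45 of 77 without a filter (13.0%) and 50 of 74 with a mean of at least 5 RPKM (26.8%). After rescaling the samples to an equal total it was 46 (18.6%), and after quantile normalization 46 (26.3%). Without a trend it was 50 (22.6%), and with limma voom on the recovered reads 49 (22.7%). With 1 sample left out it was 40 to 44, the lone sample being assumed to vary like the other group, and 35 genes were called lower in all 14 settings. For members without exon overlap the median log2 fold change was -0.34 (37 of 53 lower, added after seeing the data). Over all tested members it was -0.26 after rescaling and -0.27 after quantile normalization, against 0.08 and -0.00137 for all tested genes. It was -0.32 to -0.33 with 1 sample left out. No member rose under these settings, except 2 after rescaling (MRPS36 and MRPS21) and 1 after quantile normalization (MRPS21). With the crossed replicate block 8 members rose, where 51.8% of all tested genes were called higher. MRPS18A turned above 0, to a log2 fold change of 0.0575 after rescaling and 0.0563 after quantile normalization, and lay between -0.0626 and 0.0578 with 1 sample left out. MRPL51 was at 0.0459 after quantile normalization. MRPS16 lost its call under most of these settings, with limma adjusted p = 0.0539 without a filter, 0.0562 without a trend and 0.0525 with voom. Voom used the recovered reads, which follow RUVSeq as the RPKM do, so it is no check of that step.

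The replicate numbers were not treated as pairs. Same-numbered samples deviated from their group means in opposite directions, with a correlation of -0.9845 over 11411 tested genes and -0.999 over the 76 members. This was measured after RUVSeq, and whether the numbers paired the samples before that step, or RUVSeq left such mirror images, was not tested. Both are correlations over genes and not over independent samples. Since the gap between replicates in 1 group nearly mirrored that in the other, the 2 residual degrees of freedom are hardly independent. The limma p-values may therefore be too small. With a replicate block 35 members fell and none rose (16.2% of all tested genes lower, median -0.32). With the crossed replicate block, added after seeing the data, 67 fell and 8 rose. That setting called nearly every gene, with 46.1% of all tested genes lower and 51.8% higher, so these 2 counts are not read as a result about the members. Low counts limit MRPS24 and MRPS18B most, since they had the fewest recovered reads.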

Other observations

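A list of genes for mitochondrial transcription, RNA handling and replication of the mitochondrial genome was also counted. Of its 18 tested genes, 9 fell and 1 rose, with a median log2 fold change of -0.34, against 22.8% of all tested genes lower. Of the 9 that fell, 4 act in DNA replication (C10orf2, POLG, POLG2 and SSBP1). C10orf2, the replicative DNA helicase Twinkle, was at 25.4 and 23.0 RPKM in Ctrl and at 9.25 and 10.2 RPKM in MYCN KD (log2 fold change -1.23, SE 0.0810, limma adjusted p = 0.00440). SUPV3L1, an RNA helicase of mitochondrial RNA decay, was at 21.9 and 22.9 RPKM in Ctrl and at 11.9 and 11.4 RPKM in MYCN KD (log2 fold change -0.88, limma adjusted p = 0.00371). TFB2M, an initiation factor of the mitochondrial RNA polymerase, was at 14.4 and 15.5 RPKM in Ctrl and at 8.42 and 7.82 RPKM in MYCN KD (log2 fold change -0.81, limma adjusted p = 0.00567). All 3 were lower in both knockdown samples. FASTK was the gene that rose, at 47.3 and 42.5 RPKM in Ctrl and at 53.9 and 59.9 RPKM in MYCN KD (log2 fold change 0.34, limma adjusted p = 0.0483).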
